A study of Caenorhabditis elegans with 8 samples.

Results

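The genes described here are 10 *C. elegans* genes of histone H3 lysine 9 (H3K9) methylation and heterochromatin: the methyltransferase genes *met-2*, *set-25* and *set-32*, the cofactor gene *lin-65*, *hpl-1* and *hpl-2* of the HP1 family, the HP1 partner *lin-13*, and the reader genes *lin-61*, *cec-3* and *cec-4*. They were taken by gene name and matched by gene identifier to the deposited count table, which lists 46926 genes. Of these genes, 25295 had at least 1 count and 16808 passed the filter on low counts, among them all 10 genes of the group.

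PolyA RNA of whole animals was sequenced in 8 libraries, 4 of wild type N2 animals without a transgene (non-Tg, titled as controls) and 4 titled as *smrd-1* null. The latter come from *smrd-1 Δ#1*, 1 strain with a CRISPR deletion of several exons of *smrd-1*, the worm homolog of the chromatin remodeler SMARCAD1. Both groups were kept at 20 °C on plates with OP50 bacteria, and neither carried tau. The extraction protocol and the published methods give the L4 larval stage, and the design text gives adults. None of them says how many animals a pellet held. Nothing states that the replicates were separate cultures, so p-values measure the spread between these libraries, which may be technical. In whole-animal RNA, fewer cells of a type and less RNA per cell cannot be told apart.

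Methylation of H3K9 marks silent chromatin, and in *C. elegans* it is laid down in steps. MET-2, a relative of mammalian SETDB1, adds the first methyl groups, and SET-25 can carry the mark to trimethylation. Proteins with a chromodomain or MBT repeats then bind the methylated tail, and 1 of them, CEC-4, holds such chromatin at the nuclear envelope. The study examined H3K9 trimethylation in tau transgenic animals with and without *smrd-1*, a background that these libraries do not have. Here the comparison asks whether transcripts of the genes that write and read this mark differed between the groups. Histone marks and proteins were not measured in these libraries.

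Each library held 74704022 to 78008833 counts. The targeted gene went against the labels: *smrd-1* was at 42.1 to 50.3 CPM (counts scaled to TMM-normalized library size) in the libraries labelled non-Tg and at 78.8 to 88.3 CPM in those labelled *smrd-1 Δ#1* (log2 fold change 0.83 ± 0.0813 SE, edgeR adjusted p = 0.00889). Reads were counted over the whole gene, so the level includes any exon outside the deletion, and the direction of each difference below rests on the library labels. The deletion group is used below for the 4 libraries labelled *smrd-1 Δ#1*, by label only. Replicates 1 and 2 also stood apart from replicates 3 and 4 in both groups, a division that the labels do not name. The division was seen in the same counts that the fits with it as a covariate tested. Over all genes, edgeR's quasi-likelihood test (4 libraries against 4, Benjamini-Hochberg adjusted p at most 0.05) called 26 genes, 15 higher and 11 lower in the libraries labelled *smrd-1 Δ#1*, and it called 929 with that division as a covariate.

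For none of the 10 heterochromatin genes was a difference between the labelled groups found that exceeded the spread between libraries. In edgeR 0 of 10 passed the adjusted threshold, against 0.155% of all genes tested, and 0 had an unadjusted p under 0.05, against 7.74% of all genes. DESeq2 likewise called 0 of the 10 (1.26% of the genes to which it gave an adjusted p), and 0 had an unadjusted p under 0.05. The share of all genes with such a DESeq2 p was not worked out. The levels of the groups overlapped for all 10 genes, while they did not overlap for 5.20% of all genes. Fitted log2 fold changes were above 0 for 7 genes and below 0 for 3, with a median of 0.06, beside a median of -0.01 and a share above 0 of 48.6% over all genes.

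The transcripts spanned a 6.60-fold range of levels per exon length, given as counts per kilobase of exon and scaled library size (RPKM). The HP1 gene *hpl-2* was highest at 37.2 ± 2.48 RPKM (SD, n = 8 libraries), which placed it at percentile 83.1 of the genes tested. The chromodomain gene *cec-3* followed at 29.8 ± 2.09 RPKM, and its highest library lay below the lowest of *hpl-2*. The genes *lin-61* (18.9 ± 2.14 RPKM), *lin-13* (18.7 ± 0.408 RPKM), *met-2* (17.8 ± 1.47 RPKM) and *cec-4* (16.9 ± 1.17 RPKM) formed a run in which the ranges of neighbours overlapped. The length of *cec-4* includes 12.6% of exonic bases shared with another gene, where reads were left out. Its level per length is therefore understated, and its place in the run is uncertain.

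Below that run, *lin-65* stood alone at 13.3 ± 0.920 RPKM. The lowest levels per length were those of *hpl-1* (6.76 ± 1.52 RPKM), *set-25* (6.66 ± 0.383 RPKM) and *set-32* (5.63 ± 0.538 RPKM), again with overlapping ranges between neighbours. These 3 genes were below the median of all genes tested, 8.09 RPKM, and the other 7 were above it. Within a library the order of the last pair was fixed all the same, since *set-25* was the higher of the pair in 8 of 8 libraries.

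**Figure D1:**
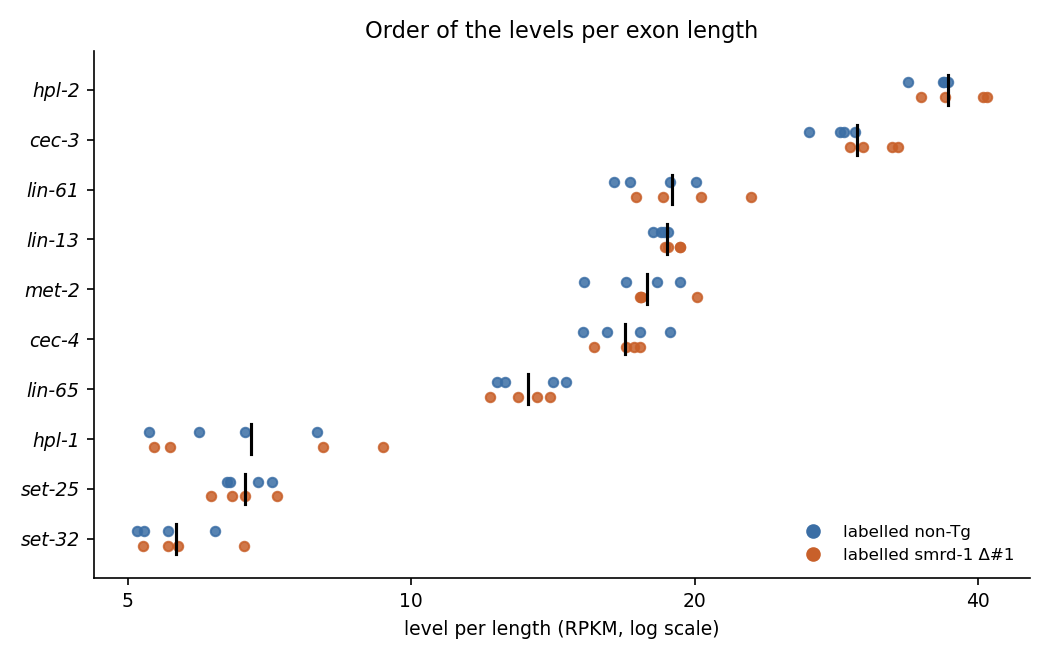
Level per exon length of the 10 genes (RPKM, log scale) in each of 8 libraries (blue points, labelled non-Tg; orange points, labelled smrd-1 Δ#1), with the mean of the 8 as a black line. The genes run from hpl-2 at 37.2 RPKM down to set-32 at 5.63 RPKM, and within each gene the colours mix.

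The writers of the mark come first. *met-2* (WBGene00019883; WBcel235 chromosome III, 8375300 to 8380848, plus strand, 9 exonic blocks) encodes the enzyme for mono- and dimethylation of H3K9. Its level was 75.4, 79.7, 69.8 and 63.1 CPM in the non-Tg libraries 1 to 4. In the libraries labelled *smrd-1 Δ#1* it was 72.5, 72.6, 83.0 and 72.2 CPM. The groups overlapped, the highest library being replicate 3 of the deletion group and the lowest replicate 4 of non-Tg. The means were 72.0 ± 7.19 and 75.1 ± 5.30 CPM (SD, n = 4 each), a log2 fold change of 0.06 (95% interval -0.15 to 0.27, edgeR adjusted p = 0.831).

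*set-25* (WBGene00012802; chromosome III, 13283824 to 13293090, minus strand, 8 exonic blocks) encodes the enzyme known for H3K9 trimethylation. It was at 18.0, 19.9, 19.3 and 17.8 CPM in non-Tg and at 20.2, 18.1, 18.7 and 17.2 CPM in the libraries labelled *smrd-1 Δ#1*. The deletion group held both the highest and the lowest library of the 8. Its log2 fold change was -0.02 (95% interval -0.23 to 0.19, edgeR adjusted p = 0.952), with means of 18.8 ± 1.02 and 18.5 ± 1.27 CPM (SD, n = 4 each). Of its 2800 exonic bases, 85 are shared with genes on the opposite strand, 64 of them with *unc-64*.

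*set-32* (WBGene00008062; chromosome I, 9519244 to 9521275, plus strand, 7 exonic blocks) encodes a SET domain protein that acts with SET-25 in nuclear RNA interference. Its non-Tg libraries held 10.2, 9.13, 8.45 and 8.60 CPM, and the libraries labelled *smrd-1 Δ#1* held 8.59, 9.11, 10.99 and 9.36 CPM. Replicate 3 of the deletion group and replicate 1 of non-Tg were the highest, and the other 6 lay close together. The log2 fold change was 0.06 (95% interval -0.23 to 0.36, edgeR adjusted p = 0.873).

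The cofactor gene *lin-65* (WBGene00022149; chromosome I, 1755329 to 1766400, plus strand, 8 exonic blocks, 3 annotated transcripts) encodes a protein that accompanies MET-2 into the nucleus. It was at 36.9, 38.1, 32.9 and 32.3 CPM in non-Tg. The libraries labelled *smrd-1 Δ#1* held 35.6, 33.98, 36.7 and 31.7 CPM, within the non-Tg range except for the last, which was the lowest of the 8. The means of 35.1 ± 2.93 and 34.5 ± 2.17 CPM (SD, n = 4 each) gave a log2 fold change of -0.02 (95% interval -0.22 to 0.18, edgeR adjusted p = 0.931).

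Ratios between pairs of these genes within a library, which do not depend on library size, were compared by an exact two-sided permutation test over the 70 arrangements of 4 libraries against 4 (smallest possible p 0.0286). For *met-2* over *set-25* the mean log2 ratio of counts was 1.94 ± 0.117 in non-Tg and 2.02 ± 0.131 in the libraries labelled *smrd-1 Δ#1* (SD, n = 4 each; exact p = 0.371, adjusted over 5 ratios 0.619). For *met-2* over its cofactor gene *lin-65* the values were 1.04 ± 0.0512 and 1.12 ± 0.0749 (exact p = 0.143, adjusted 0.357). The ratios of *met-2* to *lin-65* overlapped between the groups. Without replicate 1 of the deletion group they no longer did, with a difference of 0.12. The exact p was 0.0286, the smallest value that this test allows for 3 libraries against 4. It was the lowest p over runs leaving out each of the 8 libraries for the 5 ratios, and it is not adjusted. *set-25* over *set-32* differed by -0.08 between the group means (exact p = 0.514, adjusted 0.643).

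**Figure D2:**
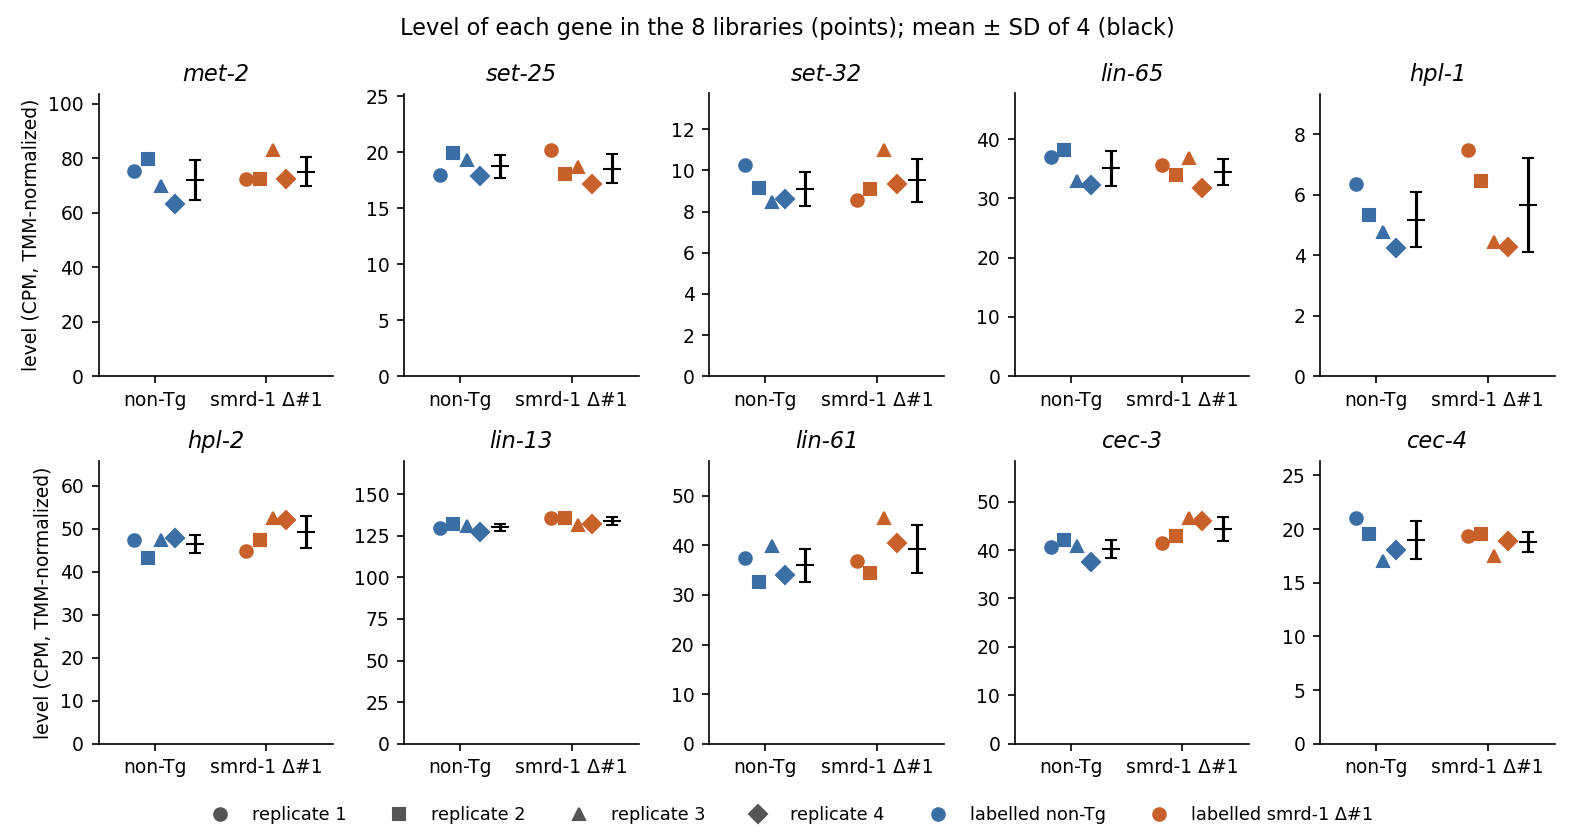
Level of each of the 10 genes (CPM after TMM normalization, each vertical axis from 0) in the 8 libraries, with the replicate number as the symbol and the mean ± SD of 4 libraries in black. The groups overlap in every panel; hpl-1 has the widest spread for its level, and lin-13 the narrowest.

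The HP1 genes encode chromodomain proteins that bind methylated H3K9. *hpl-1* (WBGene00001995; chromosome X, 13245390 to 13247044, plus strand, 5 exonic blocks) had the fewest counts of the 10 genes in each library, with a lowest value of 342. It was at 6.37, 5.34, 4.78 and 4.23 CPM in non-Tg and at 7.48, 6.46, 4.44 and 4.28 CPM in the libraries labelled *smrd-1 Δ#1*. In both groups replicates 1 and 2 lay above replicates 3 and 4, and the groups overlapped. Its coefficient of variation was 17.7% in non-Tg and 27.6% in the deletion group. The log2 fold change was 0.13 (95% interval -0.39 to 0.65, edgeR adjusted p = 0.853), the widest interval of the 10.

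*hpl-2* (WBGene00001996; chromosome III, 10752195 to 10755530, minus strand, 7 exonic blocks, 3 annotated transcripts), the HP1 gene needed for fertility and vulval patterning, had 5.50 times the level of *hpl-1* per length. Its non-Tg libraries held 47.4, 43.3, 47.3 and 47.7 CPM, and those labelled *smrd-1 Δ#1* held 44.7, 47.4, 52.6 and 52.0 CPM. Replicates 3 and 4 of the deletion group were above all non-Tg libraries, and replicates 1 and 2 were not. The means were 46.4 ± 2.09 and 49.2 ± 3.77 CPM (SD, n = 4 each), a log2 fold change of 0.08 (95% interval -0.09 to 0.26, edgeR adjusted p = 0.748).

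The log2 ratio of *hpl-1* to *hpl-2* averaged -3.18 ± 0.273 in non-Tg and -3.15 ± 0.509 in the libraries labelled *smrd-1 Δ#1* (SD, n = 4 each; exact permutation p = 0.914, adjusted over 5 ratios 0.914). It ran from -3.50 to -2.89 in non-Tg and from -3.60 to -2.58 in the deletion group, so the spread within a group was far larger than the difference of 0.02 between them. That difference averaged values of opposite sign, 0.23 in replicates 1 and 2 and -0.18 in replicates 3 and 4.

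*lin-13* (WBGene00003002; chromosome III, 7700338 to 7709491, minus strand, 22 exonic blocks) encodes a zinc finger protein that recruits HPL-2. Its counts, up to 10607 in a library, were the highest of the 10 genes. The level was 129.9, 132.1, 131.0 and 127.5 CPM in non-Tg and 136.0, 136.0, 131.3 and 132.0 CPM in the libraries labelled *smrd-1 Δ#1*. The lowest library of the deletion group lay between the non-Tg libraries. The means of 130.1 ± 1.95 and 133.8 ± 2.54 CPM (SD, n = 4 each) gave the narrowest interval of the 10, a log2 fold change of 0.04 with a 95% interval from -0.09 to 0.17 (edgeR adjusted p = 0.822). A pseudogene on the opposite strand shares 44 of its 7053 exonic bases.

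Among the readers outside the HP1 family, *lin-61* (WBGene00003041; chromosome I, 7248827 to 7251282, minus strand, 7 exonic blocks) encodes a protein of MBT repeats that binds methylated H3K9. It was at 37.5, 32.6, 39.9 and 33.96 CPM in non-Tg and at 36.8, 34.4, 45.6 and 40.4 CPM in the libraries labelled *smrd-1 Δ#1*. Replicate 3 was the highest library within each group, and replicates 3 and 4 of the deletion group were above all non-Tg libraries. The log2 fold change of 0.13 had a 95% interval from -0.12 to 0.38 (edgeR adjusted p = 0.734).

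*cec-3* (WBGene00011636; chromosome II, 7855810 to 7857600, minus strand, 7 exonic blocks) encodes a chromodomain protein that binds methylated H3K9. Its unadjusted p was the smallest of the 10. The non-Tg libraries were at 40.6, 42.0, 40.9 and 37.6 CPM, and those labelled *smrd-1 Δ#1* were at 41.6, 42.9, 46.7 and 46.0 CPM. In 3 of the 4 deletion libraries the level was above all of non-Tg, and replicate 1 was below the highest non-Tg library. The means were 40.3 ± 1.88 and 44.3 ± 2.47 CPM (SD, n = 4 each). The log2 fold change was 0.14 ± 0.0726 SE with a 95% interval from -0.03 to 0.30, an edgeR p of 0.0910 and an adjusted p of 0.663, which fails the correction.

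*cec-4* (WBGene00017990; chromosome IV, 7575718 to 7577326, plus strand, 5 exonic blocks) encodes the chromodomain protein that anchors methylated chromatin at the nuclear envelope in embryos. Its levels were 21.1, 19.6, 17.0 and 18.1 CPM in non-Tg and 19.3, 19.6, 17.5 and 18.9 CPM in the libraries labelled *smrd-1 Δ#1*. All 4 deletion libraries lay within the non-Tg range. In both groups replicates 1 and 2 were above 3 and 4, as for *hpl-1* and for 22.1% of all genes. The log2 fold change was -0.01 (95% interval -0.23 to 0.22, edgeR adjusted p = 0.977). A gene on the opposite strand, *F32E10.5*, shares 141 of its 1119 exonic bases (12.6%). Counting did not use strand and left out reads that touched both genes, so the count of *cec-4* comes from the rest of its exons.

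The log2 ratio of *cec-3* to *cec-4* was higher in the deletion library in 4 of 4 same-numbered pairs. It averaged 1.09 ± 0.132 in non-Tg and 1.23 ± 0.144 in the libraries labelled *smrd-1 Δ#1* (SD, n = 4 each; exact permutation p = 0.143, adjusted over 5 ratios 0.357). An exact sign-flip test over the pairs gave p = 0.125, the smallest value that 4 pairs allow. The labels describe no pairing, so these pairs rest on the replicate numbers alone.

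**Figure D3:**
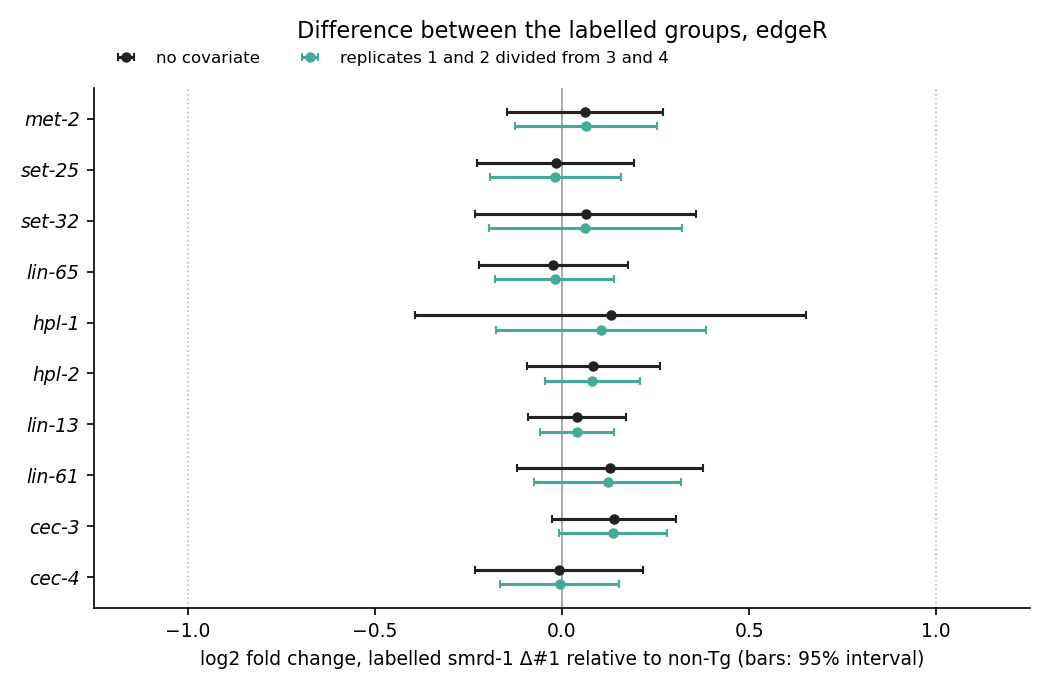
Log2 fold change of the 10 genes, libraries labelled smrd-1 Δ#1 relative to non-Tg, with 95% intervals from edgeR without a covariate (black) and with replicates 1 and 2 divided from 3 and 4 (green). Every interval of both fits holds 0 and lies between the dotted lines at -1 and 1.

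The precision of these values limits how large a difference could have gone unseen. All 10 intervals lay inside -1 to 1 on the log2 scale, and 9 lay inside -0.5 to 0.5, the exception being *hpl-1*. With the replicate division as a covariate the *hpl-1* interval was -0.18 to 0.39. The distance from the estimate to the end of its interval had a median of 0.21 over the 10 genes and of 0.50 over all genes tested. The fitted variation between libraries, as the biological coefficient of variation, was below the median of all genes (0.239) for 9 of the 10. All 10 fold changes were smaller in size than the median over all genes, 0.19. An adjusted p above the threshold does not show that a level was the same, and the intervals give the sizes that remain possible.

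With the division of the replicates as a covariate, the intervals narrowed and the calls did not change. The covariate fit in edgeR called 0 of the 10 genes, where it called 5.53% of all genes, and 0 had an unadjusted p under 0.05, where 26.9% of all genes did. The smallest adjusted p in this fit was that of *cec-3* (0.207), followed by *hpl-2* (0.387) and *lin-61* (0.397).

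The comparison was also made within each set of replicates. Within replicates 3 and 4 both deletion libraries were above both non-Tg libraries for 6 of the 10 genes (*met-2*, *set-32*, *hpl-2*, *lin-13*, *lin-61* and *cec-3*), where 30.7% of all genes were. Within replicates 1 and 2 this held for 2 of the 10 (*hpl-1* and *lin-13*), where 28.5% of all genes did. The median log2 fold change over the 10 genes was 0.11 in replicates 3 and 4 and 0.01 in replicates 1 and 2, beside 0.00 over all genes in each. The difference between the sets was not tested.

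The methyltransferase genes *met-2* and *set-32* had opposite signs in the sets. *met-2* had a log2 fold change of -0.11 within replicates 1 and 2 and of 0.23 within replicates 3 and 4, and *set-32* had -0.14 and 0.26. The readers *lin-61* (0.01 and 0.23) and *cec-3* (0.02 and 0.25) were near 0 in the first set and positive in the second. *hpl-1* went the other way, with 0.24 and -0.04. In edgeR fits of 2 libraries against 2, chosen after the data were seen, 0 of the 10 genes were called in either set, where 1.62% of all genes were called in replicates 1 and 2 and 12.2% in replicates 3 and 4. Only *cec-3* in replicates 3 and 4 had an unadjusted p under 0.05 (an edgeR p of 0.0267 and an adjusted p of 0.115), and 29.5% of all genes did so there. Replicate 3 of the deletion group was the highest library for 5 of the 10 genes, and replicate 4 of non-Tg was the lowest for 4. The shares of all genes with these extremes were not worked out.

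**Figure D4:**
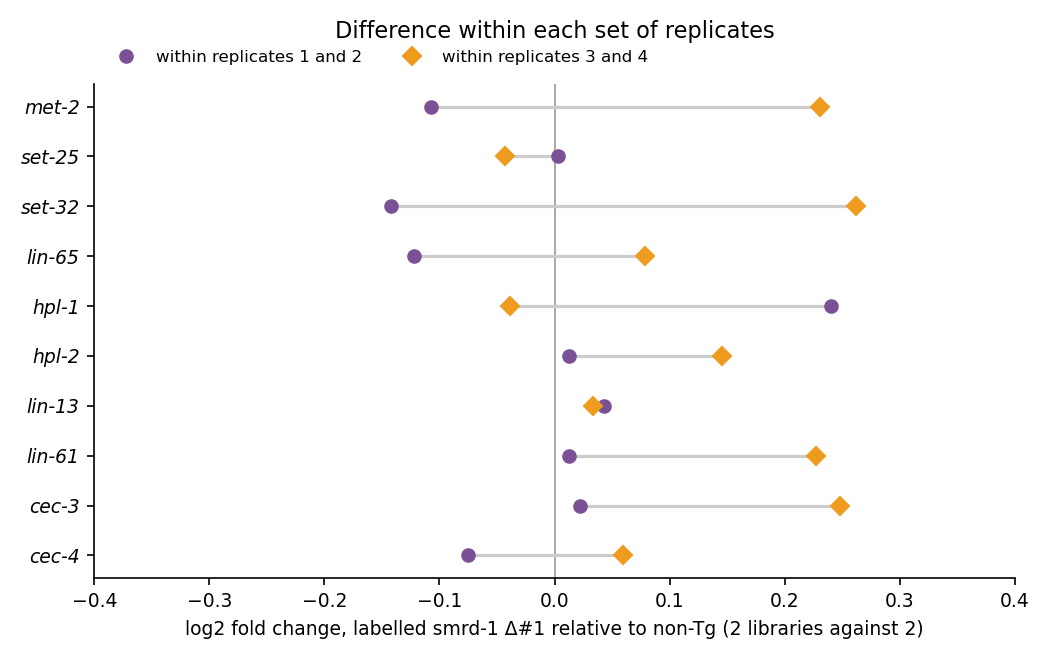
Log2 fold change of each gene, libraries labelled smrd-1 Δ#1 relative to non-Tg, within replicates 1 and 2 (purple circles) and within replicates 3 and 4 (orange diamonds), 2 libraries against 2, without error bars because no test of the difference was run. For met-2 the values are -0.11 and 0.23, while those of lin-13 nearly coincide at 0.04 and 0.03.

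Marker genes of the yolk, the gametes and the hypodermis were read in the same libraries. All marker genes listed were present in every library. The 6 vitellogenin (yolk protein) genes had log2 fold changes from 1.14 to 1.96, each with an unadjusted edgeR p under 0.05, and none was called (smallest edgeR adjusted p 0.449). Their summed level was 2249 to 6596 CPM in non-Tg and 6583 to 18352 CPM in the libraries labelled *smrd-1 Δ#1*, with the highest in replicate 3. *vit-3*, *vit-4* and *vit-5* are near-identical copies, so their separate counts are uncertain. DESeq2 called these 3, where it called 1.26% of the genes to which it gave an adjusted p. The covariate fit called *vit-3* and *vit-4*, where it called 5.53% of all genes.

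The 4 oocyte genes summed to 136 to 326 CPM in non-Tg and 218 to 557 CPM in the deletion group, at a median log2 fold change of 0.77. Of them *oma-2*, a gene of oocyte maturation, had 0.96 (edgeR adjusted p = 0.598). For the 5 sperm genes the sums were 105 to 237 and 147 to 354 CPM (median 0.46). Of these the covariate fit, which called 5.53% of all genes, called *gsp-4*, a sperm phosphatase gene (edgeR adjusted p = 0.0295). The call of *gsp-4* was absent without the covariate (edgeR adjusted p = 0.718) and under a replicate block (edgeR adjusted p = 0.0893). The 3 hypodermal genes summed to 613 to 1285 and 984 to 1912 CPM (median -0.04). For *col-19* among them, an adult collagen gene, the log2 fold change was 1.203 (edgeR adjusted p = 0.598). The other 2 hypodermal genes had values below 0, the lower at -0.33. The deletion over non-Tg ratio of summed vitellogenin was 1.92 in the first set of replicates (1 and 2) and 3.15 in the second (3 and 4). Replicate 3 of the deletion group, the highest library for 5 heterochromatin genes, was also the highest for the summed oocyte, sperm and vitellogenin genes. It was the highest for the hypodermal sum as well, where *col-19* held 1545 of the 1912 CPM. The other 2 hypodermal genes were not at their highest there. The gene at -0.33 was at 55.9 CPM, its lowest level of all libraries. The share of all genes that were highest in this library was not worked out. The part of the marker genes in the levels of the heterochromatin genes was not tested.

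The other lists covered the germline in general, muscle, neurons and the intestine. The 4 genes listed for the germline in general had a median log2 fold change of 0.12, with 3 above 0 and 1 below, at -0.21. Among them *pgl-1*, a P granule gene, had 0.19 (an edgeR p of 0.0346 and an adjusted p of 0.618). Its groups did not overlap, as for 5.20% of all genes. The summed level of the germline list was 1275 to 1787 CPM in non-Tg and 1349 to 1665 CPM in the deletion group. The gene of this list below 0 held 405 to 785 CPM of the non-Tg sums. The 3 body wall muscle genes summed to 5861 to 9477 and 4515 to 9299 CPM, higher in replicates 1 and 2 than in 3 and 4 in both groups. The 4 neuronal genes were at 162 to 182 and 158 to 177 CPM, with *snb-1* (synaptobrevin) at a log2 fold change of 0.01. The 3 intestinal genes summed to 354 to 707 and 322 to 537 CPM (median -0.26). Among them the intermediate filament gene *ifb-2* had -0.42 (edgeR adjusted p = 0.722), and *unc-54* (muscle myosin) had -0.16 (edgeR adjusted p = 0.861).

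**Figure D5:**
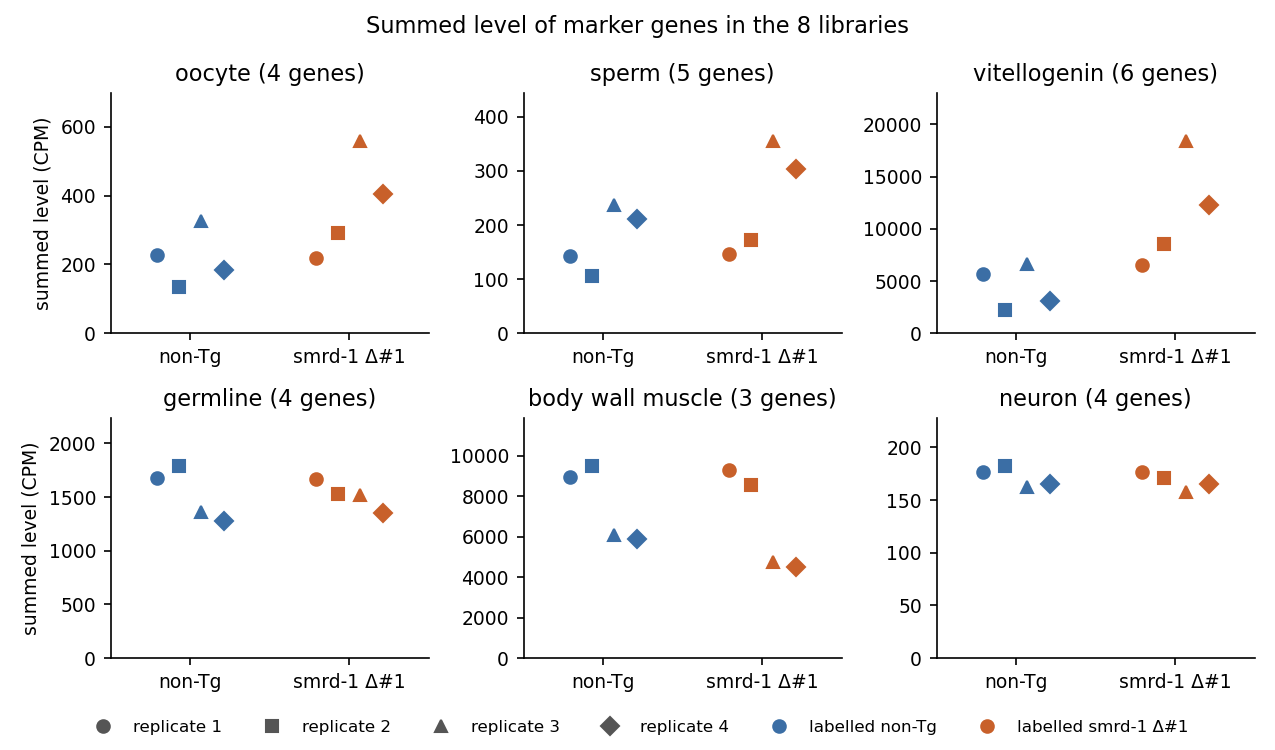
Summed level of 6 marker lists (CPM, each vertical axis from 0) in the 8 libraries, with the replicate number as the symbol. Vitellogenin, oocyte and sperm genes are highest in replicate 3 of the libraries labelled smrd-1 Δ#1, and body wall muscle genes are higher in replicates 1 and 2 of both groups.

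Lists of related genes were also read. The *set* and *cec* lists took every other gene with such a name and a number, so the lists are not confined to H3K9 methylation. Of 59 further genes in 7 lists, 57 were tested, 29 with a log2 fold change above 0 and 28 below, with a median of 0.03. edgeR called 0 of them and DESeq2 called 0. In edgeR 2 had an unadjusted p under 0.05, where 7.74% of all genes did. The first was *set-5*, a SET domain gene, with a log2 fold change of 0.27 (an edgeR p of 0.0301 and an adjusted p of 0.608). The other was *nrde-3*, which encodes the Argonaute protein that carries small RNAs into somatic nuclei. It was at 19.4 ± 1.15 CPM in non-Tg and 16.4 ± 1.52 CPM in the libraries labelled *smrd-1 Δ#1* (SD, n = 4 each). Its log2 fold change was -0.25 (an edgeR p of 0.0403 and an adjusted p of 0.639). The groups did not overlap for *nrde-3*, as for 5.20% of all genes. Another nuclear RNA interference gene also had groups without overlap, but with the higher levels in the deletion group.

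By list, the 26 other tested SET domain genes named *set* had 10 values above 0 and 16 below. The covariate fit called 1 gene of the 7 lists, *set-26*, a gene with PHD and SET domains. Its log2 fold change was -0.23 (edgeR adjusted p = 0.0459), in a fit that called 5.53% of all genes. Without the covariate it had -0.21 (edgeR adjusted p = 0.744), and the call was also absent under a replicate block (edgeR adjusted p = 0.110). *arle-14*, whose product joins MET-2 and LIN-65 in nuclear foci, had 0.22 (edgeR adjusted p = 0.693). The 7 other *cec* chromodomain genes were 3 above and 4 below 0, with the most counted, *cec-5*, at -0.02.

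Of the 6 demethylase genes 4 were above 0, and *jhdm-1*, the most counted, had 0.10. The 5 genes of the nuclear periphery and of chromatin bound there were 3 above and 2 below 0, with the lamin gene *lmn-1* at -0.05. Among the 7 nuclear RNA interference genes 6 were above 0, all but *nrde-3*. The 5 synMuv genes, which like *lin-13*, *lin-61* and *hpl-2* have a part in vulval development, were 2 above and 3 below 0, with *lin-15B* at -0.13.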

How the data were processed

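PolyA RNA of whole animals was sequenced in 8 libraries, 4 per group, grouped by sample title. The authors aligned reads to WBcel235 with STAR and counted them with featureCounts 2.0.1 (annotation release 112 in the header). The values deposited are raw gene counts, without normalization. The command sets neither pairs nor strand, so mates were counted singly, strand was not used, and reads touching more than 1 gene were left out. Counting both mates makes the number of fragments lower than the counts. The authors also deposited a DESeq2 table, from which only gene names were used. Its comparison columns (fold changes, p-values) were not.

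Counts were analysed with edgeR 4.0.16 (TMM, filterByExpr, quasi-likelihood test, adjusted p at most 0.05 over all genes tested) and DESeq2 1.42.0 in R 4.3.3. Only the edgeR fit was tested on simulated data first, and these held no division of the replicates. Each SE was derived from the log2 fold change and its F statistic. Ratios used counts plus 0.5 and exact permutation tests (numpy 2.4.6, pandas 2.3.3, Python 3.11.15). Positions were read from annotation release 115. Depth was 74704022 to 78008833 counts per library. Alternatives were another test, other normalization and filters, a replicate block, the covariate, and leaving out each library.

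The 10 genes and all gene lists were chosen with earlier results of these data known. Text names the 10 genes, *smrd-1*, list genes with an unadjusted p under 0.05 or a call in the main or covariate fit, and otherwise each list's most counted gene. Marker lists covered germline, oocyte, sperm, vitellogenin, intestine, body wall muscle, neuron and hypodermis. The labels describe no pairing. Deviations from the group means correlated between same-numbered libraries across genes (r = 0.357, 0.221, 0.489 and 0.390), and also between others of the same set (non-Tg 2 with deletion 1, r = 0.516).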

Additional observations from a re-analysis of the deposited data

Results flagged for a closer look

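In 2 of 74 groups of 4 libraries examined, 1 library stood apart from the other 3 by Dixon's test, which chance alone gives in about 1 of 20 groups. The level of *met-2* in replicate 3 of the libraries labelled *smrd-1 Δ#1* was 83.0 CPM, and the other 3 lay between 72.2 and 72.6 CPM. The level of *hpl-2* in replicate 2 of non-Tg was 43.3 CPM, and the other 3 lay between 47.3 and 47.7 CPM.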

How the results depend on the processing

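The number of the 10 genes called was 0 under each of the 9 alternatives and with each library left out. Over all genes, 26 were called in edgeR, 251 in DESeq2 (226 without independent filtering), 929 with the covariate, and 273 and 2078 within replicates 1 and 2 and within replicates 3 and 4. Leaving out a library gave 7 to 14. The cause of these differences was not tested.

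Leaving out a library changed the sign of 6 genes, with log2 fold changes of -0.0027 to 0.11 (*met-2*), -0.061 to 0.013 (*set-25*), -0.025 to 0.12 (*set-32*), -0.066 to 0.019 (*lin-65*), -0.034 to 0.24 (*hpl-1*) and -0.069 to 0.046 (*cec-4*). It also did so for *snb-1* (-0.010 to 0.013) and for the log2 ratio of *hpl-1* to *hpl-2* (-0.17 to 0.17). The signs of *hpl-2*, *lin-13*, *lin-61* and *cec-3* held in each alternative run. Within replicates 1 and 2, *met-2* (-0.11), *set-25* (0.0033) and *set-32* (-0.14) turned, and within replicates 3 and 4, *lin-65* (0.078), *hpl-1* (-0.039) and *cec-4* (0.059) did. These within-set fits were added after the data were seen.

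The difference in the ratio of *met-2* to *set-25* was -0.11 and 0.27 in the 2 sets, and that of *set-25* to *set-32* was 0.14 and -0.30. The ratio of *met-2* to *lin-65* ranged from 0.062 to 0.12 with a library left out. Under a block of the replicate number, the edgeR adjusted p of *cec-3* was 0.289 (log2 fold change 0.14), and the block changed no call among the 10 genes. The call of *smrd-1* was lost without replicate 1 of the deletion group (adjusted p 0.0574 in edgeR). Counts of *hpl-1* were the lowest of the 10 genes, at 342 to 544 per library.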

Other observations

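By gene class, a grouping chosen after the data were seen, 397 of the 705 pseudogenes tested had a log2 fold change above 0 (median 0.07) in the libraries labelled *smrd-1 Δ#1*, and 7661 of the 15856 protein-coding genes did (median -0.01). edgeR called 5 pseudogenes higher and 2 lower at an adjusted p of at most 0.05, and 10 protein-coding genes higher and 9 lower. With the covariate, 4.54% of pseudogenes and 5.61% of protein-coding genes were called. Pseudogenes can share reads with their parent genes, so their counts are uncertain, and the difference between the classes was not tested.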
